A study of Rattus norvegicus with 12 samples.

Results

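Messenger RNA levels of 10 genes of the NF-kB pathway were followed in H9C2, a rat myoblast line that was established from heart tissue. The genes were Rela, Relb, Nfkb1 and Nfkb2, which code for NF-kB subunits, Nfkbia and Nfkbie, which code for inhibitory IkB proteins, Tnfaip3, Tnip1 and Birc3, which code for regulators of the signalling complexes, and Ikbkb, which codes for a kinase that starts the response. They were chosen by gene name, with earlier results of these data known. All 10 were found among the 16002 gene IDs of the deposited table used here. Libraries were made from polyadenylated RNA of 3 groups with 4 libraries each, and the labels give the H/R and control cells as wild type. The LITAF group carried a lentiviral vector that overexpresses LITAF, a protein of lysosomes and endosomes first described as a regulator of TNF expression, and went through 8 h of hypoxia in 1% oxygen and 2 h of reoxygenation. The H/R group carried an empty lentiviral vector and went through the same hypoxia and reoxygenation. The control group stayed in normal oxygen and carried no vector, so that the vector and the hypoxia cannot be told apart in a comparison with control. The labels call the libraries biological replicates of 1 batch and do not say whether each came from its own culture, so the p-values here reflect only how these libraries vary.

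NF-kB proteins are transcription factors that act as dimers. In resting cells IkB proteins hold the dimers in the cytoplasm. Receptors for cytokines or microbial products activate the IkB kinases, which mark the IkB proteins for destruction, and the freed dimers enter the nucleus. Among the genes they switch on are those of IkB proteins and of A20, the product of Tnfaip3, an enzyme that edits ubiquitin chains in the signalling complexes, so that the response limits itself. A second branch of the pathway processes the precursor made by Nfkb2, whose product pairs with RelB. In heart muscle the pathway is known for its part in the inflammation that follows ischaemia and reperfusion.

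The windows around the gene starts are shown because NF-kB is known to act on several of these genes itself. RefSeq windows of rat genome build GRCr8, from 250 bases before to 50 bases after a gene's start, were found for 7 of the 10 genes, namely Tnfaip3, Nfkbia, Nfkbie, Tnip1, Nfkb1, Nfkb2 and Rela. The consensus kB motif, 10 bases long and searched on both strands, occurred in 6 of these 7 windows, and Rela had no match. It occurred for 962 of the 9395 tested genes with a window (10.2%). Stretches upstream of the annotated gene are given for Tnfaip3 and Nfkbie, the 2 genes whose level passed the test between the LITAF and H/R groups, and 30 bases around the match for the others. Capitals mark the kB match, and each sequence is written 5′ to 3′ on the strand of its gene.

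Tnfaip3, chr1:15543994-15544229, minus strand: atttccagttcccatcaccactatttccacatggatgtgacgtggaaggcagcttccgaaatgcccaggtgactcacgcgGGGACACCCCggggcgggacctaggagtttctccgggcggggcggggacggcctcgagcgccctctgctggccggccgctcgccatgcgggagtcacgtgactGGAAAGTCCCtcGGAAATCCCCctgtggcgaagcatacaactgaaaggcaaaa
Nfkbie, chr9:22947873-22948122, minus strand: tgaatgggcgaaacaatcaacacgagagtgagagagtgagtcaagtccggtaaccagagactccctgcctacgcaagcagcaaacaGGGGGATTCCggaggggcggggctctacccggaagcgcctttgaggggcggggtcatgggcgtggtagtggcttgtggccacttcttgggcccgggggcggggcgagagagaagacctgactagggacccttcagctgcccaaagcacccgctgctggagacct
Nfkbia, chr6:78597084-78597113, minus strand: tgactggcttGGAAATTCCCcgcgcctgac
Tnip1, chr10:39585027-39585056, minus strand: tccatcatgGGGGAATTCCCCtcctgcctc
Nfkb1, chr2:226805440-226805469, minus strand: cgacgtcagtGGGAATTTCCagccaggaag
Nfkb2, chr1:255108344-255108373, plus strand: tggtattttcGGGACTTTCCtaagagcact

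Tnfaip3 had 3 separate matches, which began 170, 67 and 55 bases before the start, the last 2 of them 2 bases apart. In Nfkbia the match began 31 bases before the start, in Nfkb2 20 bases, in Nfkbie 164 bases and in Tnip1 86 bases, where overlapping matches formed 1 stretch of 12 bases. In Nfkb1 it lay 4 to 13 bases after the start. The start used lies inside the annotated gene, by 14 bases in Tnfaip3, 77 in Tnip1, 235 in Nfkbia, 435 in Nfkb1 and 2364 in Nfkb2, and at its edge in Nfkbie. The matches of Nfkbia, Nfkb1 and Nfkb2 thus fall within the annotated gene, and that of Tnip1 spans its edge. A match describes these letters and not a bound site. Among the other pathway genes described below, the motif occurred for 4 of 9 genes with a window in the list of other subunits, IkB proteins and kinases, for 4 of 26 upstream genes, for 3 of 14 other negative regulators and for 11 of 24 other target genes.

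**Figure D1:**
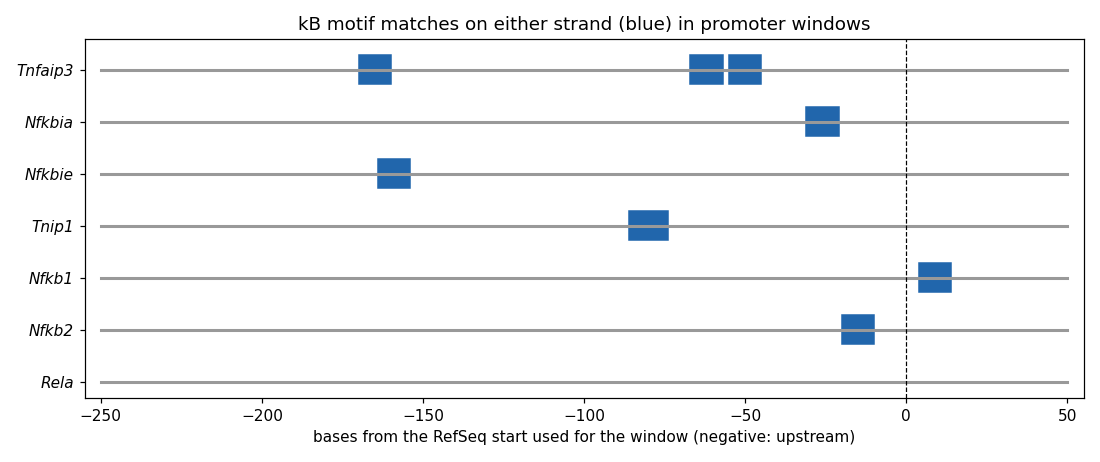
Position of kB motif matches (blue, either strand) in the promoter windows of the 7 genes with a window. The x axis gives bases from the start used for the window, with upstream negative. Tnfaip3 has 3 matches, 5 genes have 1 stretch each and Rela has none.

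Total counts were 17243530 to 18383183 in the LITAF group, 16890647 to 18084879 in the H/R group and 19205869 to 20735386 in the control group, and 11398 genes had enough counts to be tested. All 10 NF-kB genes were among them. Litaf, which checks the labels, was at 2690, 2008, 2532 and 2120 CPM (counts scaled to equal library size, with TMM factors) in LITAF libraries 1 to 4, against 549, 619, 573 and 598 CPM in H/R libraries 1 to 4 and 458, 485, 491 and 456 CPM in control libraries 1 to 4. LITAF libraries were above all others, at log2 2.00 ± 0.10 over H/R (SE, n = 4 each; adjusted p = 1.38e-08, edgeR). The share of values that are not whole was 12.0 to 12.6% in the LITAF group, 11.4 to 12.4% in the H/R group and 2.85 to 3.40% in the control group. H/R and control libraries that carry 1 number also deviated together from their group means, with correlations of 0.302 to 0.568 across genes. The part of these features in the differences from control was not tested. The muscle genes Des, Myod1 and Cdh15 were among 9 of 10 muscle markers that could be tested, while the mature cardiomyocyte gene Tnni3 had at most 1 count in any library. Other listed cardiomyocyte markers were higher. Nkx2-5 averaged 17.1 CPM in LITAF cells, 16.5 CPM in H/R cells and 6.84 CPM in control, and Myh6 had 3 to 18 counts per library. Summed muscle markers were at 3090 to 3423 CPM in LITAF cells, 3424 to 3879 CPM in H/R cells and 3431 to 7667 CPM in control. Most of this was Vim in LITAF and H/R cells, at means of 2710 and 3044 CPM, so the sums say little of the other markers. In control Myog averaged 3870 CPM and Vim 1003 CPM. The 6 listed cardiomyocyte markers found in the table summed to 20.7 to 26.9 CPM in LITAF cells and 17.6 to 25.0 CPM in H/R cells. In control they summed to 1028 to 1312 CPM, and nearly all of it was Pln. Markers of leukocytes summed to 11.6 to 12.9 CPM in LITAF cells, 9.60 to 11.3 CPM in H/R cells and 13.6 to 22.6 CPM in control, over 6 of 9 listed genes present in the table. Most of this was Cd14, and Ptprc, which defines leukocytes, had at most 3 counts in any library. Endothelial markers (5 of 6 in the table) summed to 0.0546 to 0.215 CPM in LITAF cells, 0 to 0.373 CPM in H/R cells and 0 to 0.917 CPM in control. Fewer cells of a type and less RNA per cell cannot be told apart in such bulk samples.

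**Figure D2:**
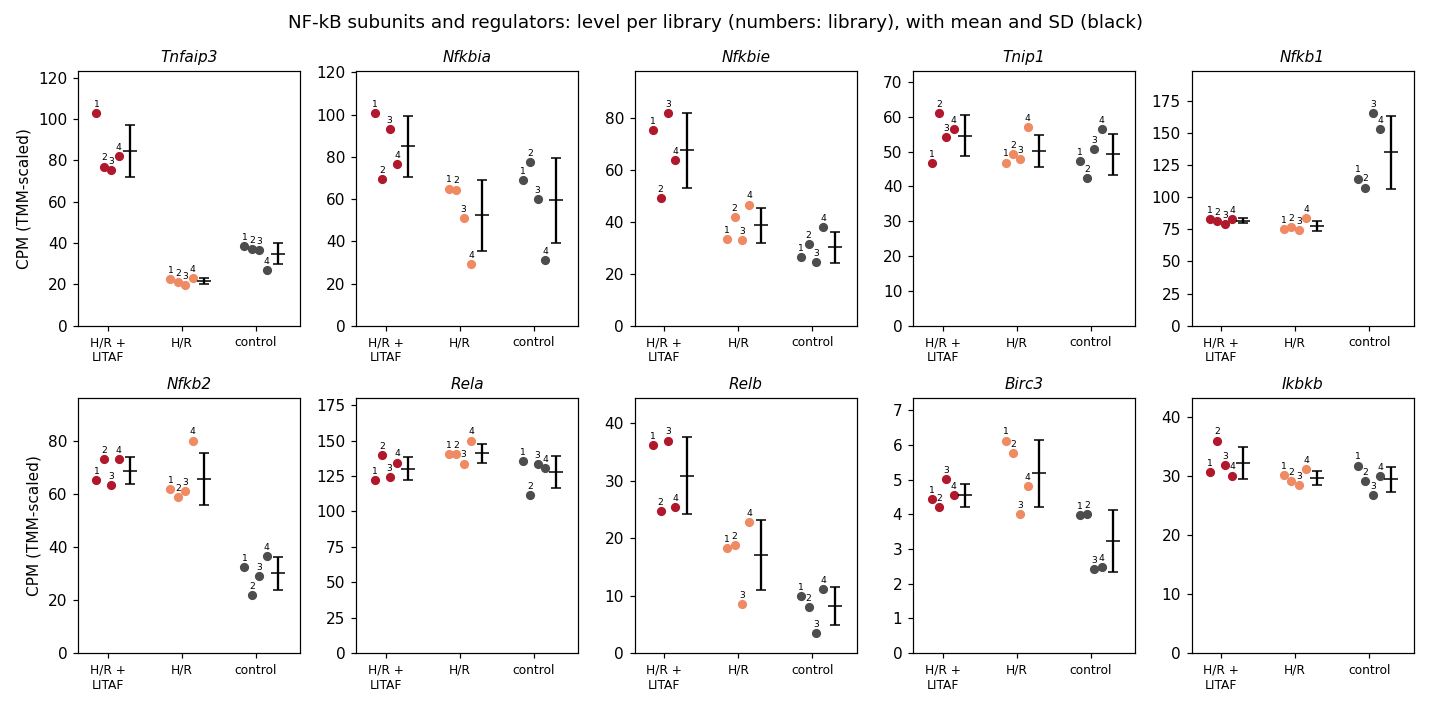
Level of each of the 10 genes in every library, in CPM after TMM scaling, for the LITAF, H/R and control groups. Coloured points are libraries with their numbers, and black bars give the mean and SD of 4 libraries. Tnfaip3 lies between 75.5 and 103 CPM in LITAF cells, above every H/R and control library.

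The comparison of the LITAF with the H/R group asks what LITAF adds, since both groups carried a vector and had the same hypoxia and reoxygenation. Of the 10 genes, 2 rose, Tnfaip3 and Nfkbie, and none fell, in edgeR's quasi-likelihood test with Benjamini-Hochberg adjustment over all genes tested. By this adjusted test 4.88% of all 11398 genes were called, of which 3.73% of all genes rose and 1.15% fell. DESeq2 also called 2 of the 10 genes higher and none lower, beside 877 of all genes (610 rose and 267 fell). At an unadjusted p under 0.05, 4 of the 10 genes were higher and none lower. The share of all genes at that threshold was not worked out, here or for the lists below. The levels of the LITAF and H/R libraries did not overlap for 4 of the 10 genes, each higher in the LITAF group, against 18.9% of all genes tested without overlap, 10.6% higher and 8.3% lower. The median log2 fold change of the 10 genes was 0.12, against -0.01 over all genes tested. Some muscle genes also moved between these groups: of 9 tested muscle markers 4 rose (Chrna1, Actc1, Tnni1 and Myh3, by log2 2.12 to 2.92), and their part in the results for the NF-kB genes was not tested.

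Among the feedback inhibitors, Tnfaip3 (ENSRNOG00000049517) was at 103, 77.0, 75.5 and 82.2 CPM in LITAF libraries 1 to 4, against 22.7, 21.1, 19.7 and 22.9 CPM in H/R libraries 1 to 4. Every LITAF library was far above every H/R library, and library 1 was the highest. The rise was 3.90-fold, log2 1.96 ± 0.13 (SE, n = 4 each), adjusted p = 2.17e-07 by edgeR's test. In the control group Tnfaip3 had 38.7, 37.1, 36.8 and 27.1 CPM, so the LITAF libraries were also above every control library.

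Nfkbie (ENSRNOG00000019907), the gene of IkB epsilon, was at 75.2, 49.1, 81.7 and 63.7 CPM in LITAF libraries 1 to 4, against 33.4, 41.7, 32.9 and 46.6 CPM in H/R libraries 1 to 4. The groups did not overlap, although LITAF library 2 was close to H/R library 4. The rise was 1.74-fold, log2 0.80 ± 0.17 (SE, n = 4 each), adjusted p = 0.0125 by edgeR's test. The call was lost without H/R library 1 (adjusted p = 0.0561), without H/R library 3 (adjusted p = 0.0597) and without LITAF library 3 (adjusted p = 0.0512), with edgeR's test in each case.

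Nfkbia (ENSRNOG00000007390), the gene of IkB alpha, which is the inhibitor that NF-kB restores fastest, was at 101, 69.4, 93.3 and 76.8 CPM in LITAF libraries 1 to 4, against 65.0, 64.5, 51.1 and 29.1 CPM in H/R libraries 1 to 4. The groups did not overlap, but the H/R libraries were widely spread, with library 4 lowest. The difference, log2 0.70 with a 95% interval of 0.16 to 1.24, did not pass the test over all genes (adjusted p = 0.133, edgeR). Tnip1, whose product brings A20 to ubiquitin chains, averaged 54.6 ± 5.91 CPM in LITAF cells and 50.2 ± 4.58 CPM in H/R cells (SD, n = 4 each). The interval of its log2 difference ran from -0.12 to 0.36, and the libraries overlapped. Birc3, which codes for the ubiquitin ligase cIAP2, had the lowest counts of the 10 genes, 77 to 93 in the LITAF group and 75 to 115 in the H/R group. Its level was 4.55 ± 0.335 CPM in LITAF cells and 5.18 ± 0.957 CPM in H/R cells (SD, n = 4 each), with overlapping libraries and a log2 interval of -0.59 to 0.22. Birc3 shares much of its sequence with Birc2, and the deposited counting could split reads between them; in RefSeq's annotation it also overlaps the pseudogene Ramac-ps1.

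Among the subunits, Relb (ENSRNOG00000033235) was at 36.3, 24.7, 37.0 and 25.4 CPM in LITAF libraries 1 to 4, against 18.3, 18.8, 8.48 and 22.8 CPM in H/R libraries 1 to 4. The groups did not overlap, and H/R library 3 stood lowest. The log2 difference of 0.85, with an interval of 0.23 to 1.47, did not pass the test (adjusted p = 0.105, edgeR).

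Rela, Nfkb1 and Nfkb2 did not pass between the LITAF and H/R groups, and their libraries overlapped. Rela, the main activating subunit, averaged 130.3 ± 8.45 CPM in LITAF cells and 141 ± 6.70 CPM in H/R cells. Nfkb1 averaged 81.6 ± 2.07 CPM in LITAF cells and 77.5 ± 4.18 CPM in H/R cells, and Nfkb2 68.6 ± 5.14 CPM in LITAF cells and 65.4 ± 9.81 CPM in H/R cells (SD, n = 4 each for these values). Their log2 differences were -0.12, 0.07 and 0.07, and no interval reached beyond log2 0.37 in size. Ikbkb, the gene of the kinase IKK beta, averaged 32.1 ± 2.67 CPM in LITAF cells and 29.7 ± 1.20 CPM in H/R cells, with a log2 interval of -0.10 to 0.32. In RefSeq's annotation Ikbkb overlaps Plat, and whether the counting used strand is not stated.

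**Figure D3:**
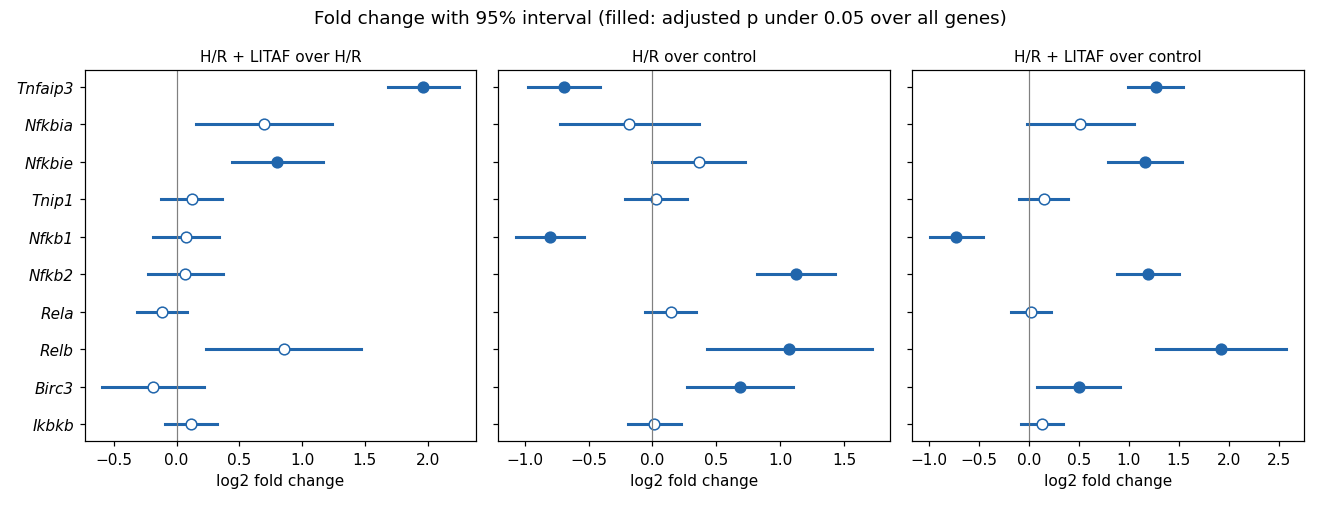
Log2 fold change of the 10 genes in the 3 comparisons of groups, with 95% intervals, and filled points for an adjusted p under 0.05 over all genes. Tnfaip3 stands at log2 1.96 for the LITAF over the H/R group and at -0.69 for the H/R group over control, and Nfkb1 and Nfkb2 lie on opposite sides of 0 in both comparisons with control.

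Set against control, the H/R group shows hypoxia, reoxygenation and the empty vector together. Of the 10 genes 3 rose, Nfkb2, Relb and Birc3, and 2 fell, Tnfaip3 and Nfkb1. Over all genes tested 31.8% rose and 31.8% fell, so that 5 of 10 is below the share of all genes, 63.6%. The levels of the groups did not overlap for 3 of the 10 genes, against 58.6% of all genes tested, with 1 of the 3 higher (30.2% of all genes) and 2 lower (28.3%). The median log2 fold change was 0.09 for the 10 genes and 0.01 for all genes tested. Muscle genes also differed between these groups. Myog, a transcription factor gene of muscle differentiation, was at 14.1 ± 6.30 CPM in H/R cells and 3870 ± 1924 CPM in control, and Pln, a regulator of the calcium pump, at 4.30 ± 0.903 CPM in H/R cells and 1119 ± 132 CPM in control (SD, n = 4 each). Within control, Myog was at 4763, 5730, 3728 and 1257 CPM in libraries 1 to 4, lowest in library 4. Of the 9 muscle markers 2 rose (Des by log2 1.81 and Vim by 1.60) and 4 fell (Myog, Myod1, Myh3 and Cdh15), while the other tested cardiomyocyte marker, Nkx2-5, rose by log2 1.27, to 16.5 ± 2.84 CPM in H/R cells against 6.84 ± 1.64 CPM in control. The part of these genes in the NF-kB results was not tested.

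Nfkb2 (ENSRNOG00000019311), the precursor gene of the second branch, was at 61.7, 58.9, 61.2 and 80.0 CPM in H/R libraries 1 to 4, against 32.5, 22.0, 28.9 and 36.6 CPM in control libraries 1 to 4. Every H/R library was above every control library. The rise was 2.18-fold, log2 1.12 ± 0.14 (SE, n = 4 each), adjusted p = 4.58e-06 by edgeR's test. Its binding partner Relb was at 18.3, 18.8, 8.48 and 22.8 CPM in H/R libraries 1 to 4, against 9.89, 7.95, 3.55 and 11.2 CPM in control libraries 1 to 4, a 2.10-fold rise (log2 1.07 ± 0.31, adjusted p = 0.00593, edgeR). H/R library 3 lay inside the range of the control group, whose own library 3 was again the lowest.

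Nfkb1 (ENSRNOG00000023258), which codes for the precursor of the subunit that most often pairs with RelA, moved the other way. It was at 75.0, 76.9, 74.5 and 83.6 CPM in H/R libraries 1 to 4, against 114, 107, 165 and 153 CPM in control libraries 1 to 4. The H/R libraries lay close together and all below the control libraries. The fall was 1.74-fold, log2 -0.80 ± 0.13 (SE, n = 4 each), adjusted p = 3.71e-05 by edgeR's test. Rela averaged 141 ± 6.70 CPM in H/R cells and 128 ± 11.1 CPM in control (SD, n = 4 each) and did not pass, at log2 0.14 with an interval of -0.06 to 0.34. It passed with library totals alone (log2 0.27, adjusted p = 0.0208) and with upper-quartile scaling (log2 0.26, adjusted p = 0.0368), both by edgeR's test, and these scalings moved the median of all genes by log2 0.13 and 0.12.

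Tnfaip3 was at 22.7, 21.1, 19.7 and 22.9 CPM in H/R libraries 1 to 4, against 38.7, 37.1, 36.8 and 27.1 CPM in control libraries 1 to 4. The H/R libraries were all lower, and control library 4 lay apart from the other control libraries. The fall was 1.62-fold, log2 -0.69 ± 0.13 (SE, n = 4 each), adjusted p = 0.000236 by edgeR's test. Birc3 averaged 5.18 ± 0.957 CPM in H/R cells and 3.22 ± 0.889 CPM in control, a 1.61-fold rise (log2 0.68 ± 0.20, n = 4 each, adjusted p = 0.00604, edgeR). H/R library 3 stood level with control library 2, so the groups were not separate.

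Nfkbia, Nfkbie, Tnip1 and Ikbkb did not pass between the H/R and control groups. Nfkbia was at 65.0, 64.5, 51.1 and 29.1 CPM in H/R libraries 1 to 4, against 69.0, 77.5, 59.9 and 31.2 CPM in control libraries 1 to 4. Library 4 was the lowest in both groups, and each H/R library was slightly below the control library of its number. Nfkbie averaged 38.7 ± 6.68 CPM in H/R cells and 30.1 ± 5.93 CPM in control (SD, n = 4 each), at log2 0.36 and adjusted p = 0.0777. Its H/R library was above the control library of its number in 4 of 4 pairs, by log2 0.299 to 0.421. The share of all genes with all pairs in 1 direction was not worked out. The pairing by number was inferred from these same values. A fit of these 2 groups alone with the number as a block was added after seeing the data. Nfkbie passed in it (log2 0.36, adjusted p = 0.00331, edgeR), while the block in the fit of all 12 libraries left it at adjusted p = 0.0746. Nfkbie also passed with library totals alone (log2 0.49, adjusted p = 0.0232), with upper-quartile scaling (log2 0.48, adjusted p = 0.0161) and without control library 4 (log2 0.49, adjusted p = 0.0251), all by edgeR's test. The log2 differences of Tnip1 and Ikbkb were 0.03 and 0.01, within intervals of -0.22 to 0.27 and -0.20 to 0.22.

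The shared numbering was also looked at in these genes. The library of lowest level carried the same number in the H/R and control groups for 6 of the 10 genes, against 45.7% of all genes tested. All 4 libraries stood in the same order for 2 of the 10, Nfkbie and Nfkb2, against 13.7% of all genes tested. With only 10 genes, neither count is set apart from the share of all genes. In the H/R group Relb varied by 35.6% and Nfkbia by 32.1% (coefficient of variation over 4 libraries), while the median of all genes tested was 7.45%. In control the values were 40.9% for Relb and 33.9% for Nfkbia, against a median of 16.1%.

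**Figure D4:**
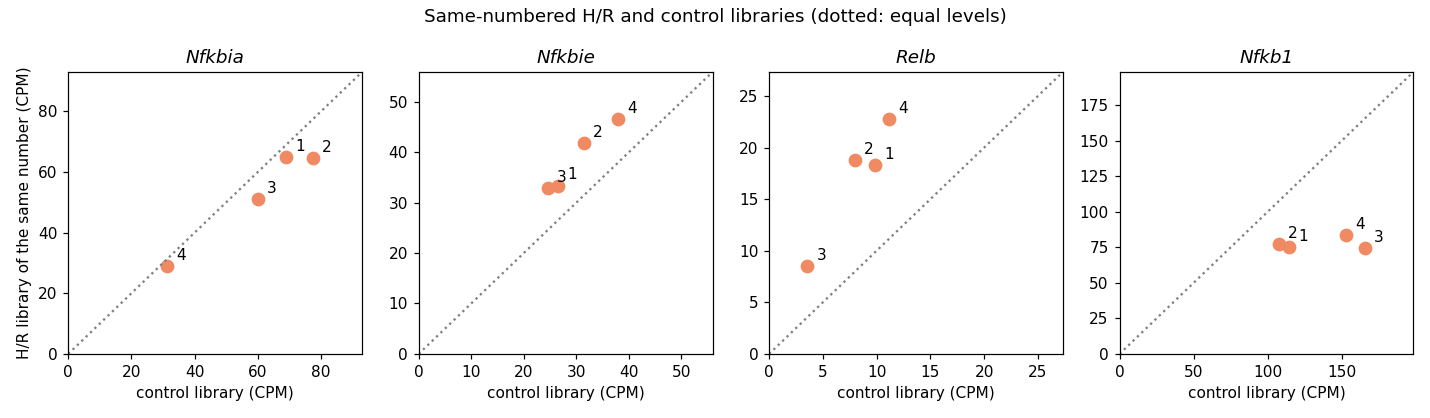
Level in each H/R library (y axis, CPM) against the control library of the same number (x axis, CPM) for Nfkbia, Nfkbie, Relb and Nfkb1, with library numbers beside the points and a dotted line of equal levels. Nfkbia and Relb keep the same library lowest in both groups, libraries 4 and 3, and all 4 points of Nfkb1 lie below the line.

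In the LITAF group against control, 5 of the 10 genes rose and 1 fell, against 32% that rose and 32.6% that fell of all genes tested, 64.6% in all. The libraries did not overlap for these 6 genes, against 52.1% of all genes tested (26.4% higher and 25.7% lower). This comparison shares its libraries with the other comparisons. Tnfaip3 was 2.42-fold higher (log2 1.27 ± 0.13), Nfkbie 2.24-fold (log2 1.16 ± 0.17), Nfkb2 2.29-fold (log2 1.19 ± 0.14) and Relb 3.79-fold (log2 1.92 ± 0.31), with adjusted p at or below 4.06e-05 for each by edgeR's test. Nfkb1 fell by log2 0.73 ± 0.13. Birc3 was at log2 0.50 ± 0.20 and adjusted p = 0.0361 by edgeR's test, and this call was lost with DESeq2 (adjusted p = 0.0535) and without any 1 of 4 libraries, control 3 and 4 and LITAF 3 and 4 (adjusted p 0.0621 to 0.104). Nfkbia did not pass, at log2 0.52 and adjusted p = 0.0858. It passed with library totals alone (adjusted p = 0.0490), with upper-quartile scaling (adjusted p = 0.0388), without control library 2 (adjusted p = 0.0485) and with the library number as a block in the fit of all 12 libraries (log2 0.60, adjusted p = 0.00825), all by edgeR's test. LITAF and control libraries of the same number correlated at only 0.0487 to 0.1, so the block does not pair these 2 groups. Over the 3 groups Relb averaged 30.9 ± 6.69 CPM in LITAF cells, 17.1 ± 6.08 CPM in H/R cells and 8.14 ± 3.33 CPM in control (SD, n = 4 each), lowest in control. Tnfaip3 averaged 84.4 ± 12.6 CPM in LITAF cells, 21.6 ± 1.50 CPM in H/R cells and 34.9 ± 5.26 CPM in control, lowest in H/R cells.

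The rest of the pathway was described through 4 lists of genes, again by the test over all genes. The lists were chosen with earlier results of these data known, so their shares are not an independent test. In the LITAF group against the H/R group, 1 of 8 tested genes in the list of other subunits, IkB proteins and kinases rose, and none fell by edgeR, by DESeq2 or at an unadjusted p under 0.05. It was Nfkbiz, whose product is an atypical IkB protein of the nucleus, at 30.0 ± 12.9 CPM in LITAF cells and 15.6 ± 0.874 CPM in H/R cells (SD, n = 4 each), log2 0.94, adjusted p = 0.0210 by edgeR's test. The call of Nfkbiz was lost without H/R library 1, 2 or 3 (adjusted p 0.0642, 0.0507 and 0.0626). The share of 12.5% comes from 1 gene, against 4.88% of all genes tested. Rel, Nfkbib and Chuk did not pass, at log2 0.15, 0.01 and -0.23.

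Of 27 tested genes upstream of the IkB kinases, 2 rose and none fell by edgeR, by DESeq2 or at an unadjusted p under 0.05. The 7.41% that passed is near the 4.88% of all genes tested. Myd88, the adaptor of Toll-like and interleukin 1 receptors, was at 45.1, 51.6, 80.9 and 37.1 CPM in the LITAF libraries and at 25.8, 23.1, 23.2 and 21.1 CPM in the H/R libraries, log2 1.20 ± 0.19 (SE, n = 4 each), adjusted p = 0.00118 by edgeR's test. The ubiquitin ligase gene Traf6, which acts after Myd88, averaged 29.4 ± 4.43 CPM in LITAF cells and 17.0 ± 0.420 CPM in H/R cells, log2 0.79 ± 0.11. The TNF receptor gene Tnfrsf1a, its adaptor gene Tradd and the ubiquitin ligase gene Traf2 did not pass, at log2 0.02, -0.09 and -0.15.

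Of 14 other negative regulators, 2 rose and none fell by edgeR's test, while 3 were lower at an unadjusted p under 0.05 (Tax1bp1, Itch and Tank) and 1 by DESeq2. The share that passed was 14.3%, against 4.88% of all genes tested. Zc3h12a, which codes for an RNase that degrades inflammatory messenger RNA, was at 39.1, 40.1, 34.3 and 38.1 CPM in the LITAF libraries and 19.8, 15.8, 18.9 and 16.4 CPM in the H/R libraries, log2 1.10 ± 0.115 (SE, n = 4 each), adjusted p = 1.97e-05 by edgeR's test. Tnip2, a relative of Tnip1 whose product also binds A20, averaged 49.9 ± 5.79 CPM in LITAF cells and 32.6 ± 1.36 CPM in H/R cells, log2 0.61 ± 0.11, adjusted p = 0.00335 by edgeR's test. The values of Tax1bp1, Itch and Tank were log2 -0.55, -0.39 and -0.53.

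Of 20 tested target genes of NF-kB outside the 10 genes, 8 were higher and none lower at an unadjusted p under 0.05. DESeq2 called 6 higher and none lower. By edgeR's test 6 rose and none fell, and the median of the list was log2 0.24. The share that passed was 30%, against 4.88% of all genes tested, in a list chosen with earlier results of these data known. They were the cytokine gene Lif (log2 1.60 ± 0.15), the chemokine genes Ccl2 (2.06 ± 0.31), Cxcl1 (1.86 ± 0.17), Ccl7 (1.51 ± 0.23) and Cxcl10 (1.19 ± 0.32), and the early response gene Ier3 (0.92 ± 0.12), with SE and n = 4 each. The call of Cxcl10 was lost without H/R library 1, 2 or 4, without LITAF library 1, 3 or 4, and with library totals alone, at adjusted p 0.0524 to 0.132. Sod2, Icam1 and Irf1 did not pass, at log2 0.06, -0.07 and 0.05.

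**Figure D5:**
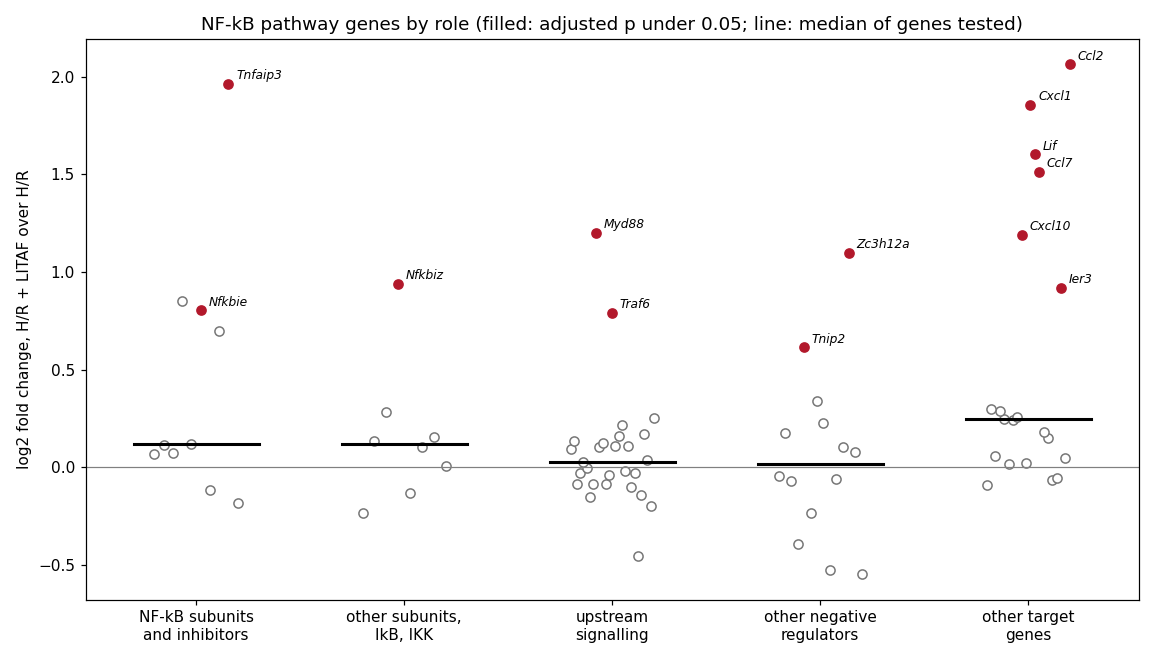
Log2 fold change of the LITAF over the H/R group for each tested gene of the 10 NF-kB genes and of 4 further lists, grouped by role. Filled and named points passed at an adjusted p under 0.05 over all genes, and black lines give the median of each list, from 0.01 to 0.24. The points that passed, between log2 0.61 and 2.06, are all above 0.

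Against control, 2 of 8 tested genes of the other subunits, IkB proteins and kinases rose and 2 fell in the H/R group. Nfkbib, the gene of IkB beta, averaged 25.1 ± 2.40 CPM in H/R cells and 8.81 ± 2.02 CPM in control (SD, n = 4 each), log2 1.51 ± 0.15, and Rel rose by log2 0.82 ± 0.16. The kinase gene Ikbke fell by log2 0.73 ± 0.15, and Nfkbiz was at log2 -0.57 with adjusted p = 0.0337 by edgeR's test, a call lost with library totals alone, with upper-quartile scaling and in 7 of the 8 fits that left out 1 library. Of the upstream genes 7 rose and 8 fell. The receptor genes Il1rap (log2 1.12 ± 0.16), Tnfrsf12a (0.88 ± 0.13) and Ltbr (0.58 ± 0.14) had the largest rises, and the receptor gene Tnfrsf1b (-2.22 ± 0.34), the kinase gene Irak1 (-0.60 ± 0.10) and the ubiquitin ligase gene Birc2 (-0.56 ± 0.12) the largest falls. Of the other negative regulators 6 rose and 2 fell, with Tnip2 at log2 1.11 ± 0.11 and Tollip, whose product restrains interleukin 1 signalling, at log2 1.09 ± 0.11 and Optn at 0.89 ± 0.21. Rnf11, whose product works with A20, fell by log2 0.81 ± 0.12, and N4bp1 was at -0.34 with a call lost under both other scalings and without control library 2 or 4 or H/R library 1, 2 or 3 (adjusted p 0.0509 to 0.166, edgeR). Of the target genes 4 rose and 7 fell, with the largest rises in Il6 (log2 1.53 ± 0.20), Gadd45b (1.05 ± 0.18) and Ier3 (0.69 ± 0.12) and the largest falls in Vcam1 (-2.40 ± 0.20), Ccl2 (-2.15 ± 0.31) and Csf1 (-1.62 ± 0.09). The shares of these lists that passed, 50 to 57.1%, were below the 63.6% of all genes tested.

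The comparisons of LITAF with H/R and of H/R with control share the H/R libraries, so a deviation of those libraries moves the 2 values in opposite directions. Their log2 fold changes are given side by side, first for a few genes singled out after their values were seen. They were 1.96 and -0.69 for Tnfaip3, 2.06 and -2.15 for Ccl2, 1.51 and -1.10 for Ccl7 and 1.20 and -0.45 for Myd88. For Traf6 they were 0.79 and 0.55, for Tnip2 0.61 and 1.11, for Zc3h12a 1.10 and 0.35 and for Ier3 0.92 and 0.69. Of the other genes named above that passed between LITAF and H/R, Nfkbie had 0.80 and 0.36, Nfkbiz 0.94 and -0.57 and Lif 1.60 and 0.22. Cxcl1 had 1.86 and -0.19, and Cxcl10 had 1.19 and -0.04. In the LITAF group against control, 3 of 8 other subunits, IkB proteins and kinases rose and 2 fell, as did 9 and 7 of 27 upstream genes, 7 and 4 of 14 negative regulators and 8 and 5 of 20 targets. The shares of these lists that passed, 59.3 to 78.6%, stand beside 64.6% of all genes tested. Among the largest rises were log2 1.73 for Tnip2, 1.83 for Lif, 1.83 for Il6, 1.67 for Cxcl1, 1.52 for Nfkbib, 1.44 for Zc3h12a and 1.34 for Traf6, and among the largest falls -2.49 for Vcam1, -2.00 for Tnfrsf1b, -1.48 for Csf1, -0.71 for Rnf11, -0.65 for Birc2 and -0.63 for Chuk. The calls of Map3k14, Ikbke, Tlr4 and Itch (log2 0.24, -0.44, -0.62 and -0.51) were lost in 2 to 7 of the alternatives tried.

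The genes most like Tnfaip3 were sought outside the 10 genes, by the smallest root mean square difference of log2 CPM, centred per gene, over the 12 libraries. They were Cxcl1 (a difference of 0.242), Arc (0.298), Depp1 (0.326) and Ccn1 (0.331). Depp1, for example, averaged 29.4 ± 4.93 CPM in LITAF cells, 9.71 ± 1.15 CPM in H/R cells and 14.9 ± 1.64 CPM in control (SD, n = 4 each). For Nfkbia they were Bmpr1b (0.280), Ldlrad4 (0.284), Mpzl3 (0.314) and Jcad (0.316).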

How the data were processed

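RNA-seq counts of 12 libraries were used. The authors deposited gene counts with Ensembl rat IDs. Because some values are not whole, the deposited values were taken to be estimated counts, not normalized, and were rounded before testing. The submitters' processing notes name DESeq2 and edgeR; aligner, counter, build, annotation and strand setting are each not given in the sources used here. Of 16204 rows, 258 shared one of 128 IDs; identical rows were merged for 56 IDs, and 72 IDs with differing rows were left out, none of them a gene named here.

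Genes were filtered with filterByExpr, scaled by TMM and tested in 1 fit of all 12 libraries with edgeR's two-sided quasi-likelihood F-test (edgeR 4.0.16, limma 3.58.1, R 4.3.3; DESeq2 1.42.0 as an alternative), with Benjamini-Hochberg adjustment over 11398 genes and a threshold of 0.05. The SE was derived from the fold change and F, and intervals are 95% intervals for a single gene. The code was tested on simulated data. Depth was 16890647 to 20735386 counts per library, so that counting error matters mostly for genes with few counts. Levels were not compared between genes, since no lengths were used.

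Named genes were the 10 genes, each gene of the 4 further lists that passed between the LITAF and H/R groups, and up to 3 rises and 3 falls per list against control, a few of which are given as counts alone, with up to 3 further genes per list that did not pass; marker genes were named after their values were seen. Likeness was sought among genes outside the 10 with a mean log2 CPM of at least 2 (prior count 2). The genes set side by side first in 2 comparisons were singled out after their values were seen. The genes and lists were chosen with earlier results of these data known. H/R and control libraries of 1 number deviated together in each of 4 pairs (correlations 0.302 to 0.568). The titles give the numbers but state no pairing, so the pairing was inferred from these values alone. The main fit did not use it, and its p-values for H/R over control treat the libraries as unpaired. Libraries of 1 group differed by more than counting noise in every pair (chi-square per degree of freedom of at least 3.49). It was 3.49 to 13.7 between H/R libraries, 8.63 to 73.3 between LITAF libraries and 44.3 to 52.8 between control libraries. The median coefficient of variation of all genes tested was 12.2% in LITAF, 7.45% in H/R and 16.1% in control. The main fit used 1 estimate of spread per gene for all groups. Promoter windows and gene overlaps come from RefSeq, build GRCr8, matched by symbol.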

Additional observations from a re-analysis of the deposited data

Results flagged for a closer look

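Within groups of 4 libraries, 5 of 132 groups of values (44 genes in 3 groups) had 1 library far from the other 3, where chance gives about 5% of groups, or 6.6. Tnfaip3 was at 27.1 CPM in control library 4, against 36.8 to 38.7 CPM in the other control libraries. Nfkb2 was at 80.0 CPM in H/R library 4, against 58.9 to 61.7 CPM in the other H/R libraries. Map3k14, a kinase gene of the second NF-kB branch, was at 71.7 CPM in LITAF library 2, against 65.7 to 66.4 CPM in the others of that group. Cxcl10 was at 0.960 CPM in H/R library 3, against 0.513 to 0.561 CPM in the other H/R libraries. Gadd45b was at 268 CPM in H/R library 4, against 286 to 290 CPM in the other H/R libraries.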

How the results depend on the processing

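The number of genes called between the LITAF and H/R groups was 556 and moved to 877 with DESeq2, 1098 in a fit of these 2 groups alone, 873 with a replicate block and 244 to 1285 with 1 library left out, most without LITAF library 1 and fewest without H/R library 3 or LITAF library 4, and by more than 1.5 times also without H/R library 1, 2 or 4 or LITAF library 3 (272, 279, 365 and 322). The cause was not tested. Rises made up 76.4% of the calls, against 61.0% with library totals alone and 53.8% without LITAF library 1 (692 rose and 593 fell) to 86.9% without LITAF library 4. Of the 10 NF-kB genes, 2 were called, 4 with the replicate block (Nfkbia at log2 0.77 and adjusted p = 0.0184 and Relb at log2 0.95 and adjusted p = 0.0443 by edgeR's test) and 1 to 2 with 1 library left out. LITAF and H/R libraries of the same number correlated at 0.0543 to 0.197, and 1 of 4 LITAF libraries correlated best with its own number, so the numbers do not pair these groups. Nor do they pair LITAF with control, where the correlations were 0.0487 to 0.1 and 1 of 4 was best with its own number. With 1 library left out, 5 to 6 of the 10 genes were called between H/R and control (6768 to 7224 of all genes) and 5 to 7 between LITAF and control (6854 to 7586 of all genes). Tnfaip3 kept its direction and its call in each alternative of the 3 comparisons, with log2 1.88 to 2.01 between LITAF and H/R. Signs turned in genes near 0 that passed in neither case. With 1 library left out, Ikbkb ran from -0.0278 to 0.0534 for H/R over control (-0.000102 with DESeq2 size factors, -0.00525 without H/R library 4), Nfkbia from -0.39 to 0.0242, Tnip1 from -0.0340 to 0.10 (-0.0333 without control library 2) and Rela from -0.0312 to 0.0822 for LITAF over control (-0.0194 without LITAF library 2). The replicate block in the fit of all 12 libraries changed no call of the 10 genes between H/R and control, and let Nfkbia pass between LITAF and control (log2 0.60, adjusted p = 0.00825, edgeR). A replicate block in a fit of the H/R and control libraries alone, added after seeing the data, called 6 of the 10 genes and 8032 of all genes. The main fit, without pairing, called 5 of the 10 genes and 7248 of all genes. Low counts limit Birc3, Ccl2, Ccl7, Cxcl10, Tnfrsf1b, Vcam1, Chrna1, Actc1 and Tnni1, several of which have fewer than 20 counts in some libraries.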

Other observations

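Some target genes of NF-kB had too few reads to be tested, and their counts are given without a test. Mmp3, which codes for a matrix protease, had 2, 3, 2 and 3 counts in LITAF libraries 1 to 4, and 0 in each H/R and control library. Ccl20, a chemokine gene, had 0, 3, 1 and 2 counts in the LITAF libraries and 0 in each H/R and control library. Plau had 1, 0, 1 and 0 counts in LITAF, 1, 1, 1 and 3 in H/R and 0 in each control library. Mmp9 had 0, 1, 2 and 3 in LITAF, 1, 0, 0 and 5 in H/R and 0 in each control library. Nos2 had 1, 0, 0 and 3 in LITAF, 0, 0, 2 and 0 in H/R and 0 in each control library. Cxcl2 had 2, 0, 1 and 1 in LITAF, 0, 3, 0 and 1 in H/R and 0, 2, 0 and 1 in control. Ptx3 had 0, 2, 4 and 0 in LITAF, and 1, 0, 1 and 0 in both H/R and control. Tnf, the cytokine gene after which LITAF was named, had 0, 0, 1 and 2 counts in the LITAF libraries, 1, 2, 0 and 0 in the H/R libraries, and 1, 0, 0 and 0 in the control libraries, at most 2 in any library. By counting error alone, a count of 0 in 1 library leaves room for an expected count of up to 3 in that library. This limit is for 1 library and was not worked out for several libraries together.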
